A study of Rattus norvegicus with 320 samples.

Results

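The miR-26 family is covered by 4 of the 616 miRNAs in the rat count table, chosen by name: rno-miR-26a-5p, rno-miR-26b-5p and the opposite arms of their hairpins, rno-miR-26a-3p and rno-miR-26b-3p. The series is a small RNA sequencing survey of 320 libraries from 32 Fischer 344 rats, an inbred laboratory strain, with no treatment or engineered allele in any group. Rats of 2, 6, 21 and 104 weeks were sampled, 4 of each sex at each age. Adrenal gland, brain, thymus, lung, heart, spleen, liver, kidney and muscle came from both sexes, testis from males and uterus from females, so that 10 organs were taken per rat and 80 groups of 4 libraries were formed. RNA was extracted from ground organ tissue, and in such bulk samples fewer cells of a type and less RNA per cell cannot be told apart.

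MicroRNAs guide Argonaute proteins to messenger RNAs through the seed, the bases near their 5′ end, and miRNAs with one seed have largely the same candidate targets. The miR-26 family is found across vertebrates and is known for restraining the cell cycle. Its known targets include Ezh2, the histone methyltransferase of the Polycomb complex, and the transcription factor Myc is known to repress its transcription. The hairpins are carried by genes of the Ctdsp family of small phosphatases, and miR-26 is known to accumulate as neural progenitors and muscle precursors differentiate.

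The mature sequences are shown because the 2 family members that carry nearly all reads have one seed and differ at few bases. Sequences, positions and strands were taken from RefSeq (build GRCr8), and all 4 mature sequences were the same as those in the count table. Bases 2 to 8, the seed of the 5p arms, are in capitals, and the 3p arms are in lower case throughout.
rno-miR-26a-5p (chr8:127633063-127633084, plus strand): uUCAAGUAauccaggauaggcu
rno-miR-26b-5p (chr9:83425723-83425743, plus strand): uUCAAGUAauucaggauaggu
rno-miR-26a-3p (chr8:127633102-127633122, plus strand): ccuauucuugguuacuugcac
rno-miR-26b-3p (chr9:83425759-83425780, plus strand): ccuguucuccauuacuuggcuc

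Of the 616 miRNAs, only these 2 5p arms hold that seed. Counted from 1 at the 5′ end, miR-26b-5p differs from miR-26a-5p by C11U and C21U, and it is 21 bases long where miR-26a-5p has 22. The next closest mature sequence in the table is miR-145-5p for miR-26a-5p, with 11 mismatches over 22 bases, and miR-155-5p for miR-26b-5p, with 9 over 21. A read that covers both differing bases therefore separates the 2 members, and a read that ends before the second rests on the first alone. The hairpins are shown with both arms in capitals to place the arms within them.
microRNA 26a (chr8:127633048-127633137, plus strand): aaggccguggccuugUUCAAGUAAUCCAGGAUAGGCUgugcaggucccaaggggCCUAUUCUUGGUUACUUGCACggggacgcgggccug
microRNA 26b (chr9:83425709-83425793, plus strand): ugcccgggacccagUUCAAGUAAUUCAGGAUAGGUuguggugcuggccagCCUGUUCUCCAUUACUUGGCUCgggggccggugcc

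In the annotation Mir26a lies inside Ctdspl and Mir26b inside Ctdsp1, each on the strand of its protein-coding host. The 2 hairpins thus lie on different chromosomes in different host genes.

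Total miRNA counts per library ranged from 315550 to 10571766 with a median of 2856970, and liver libraries were the shallowest. The study left out 2 libraries, male replicate 3 of brain at week 6 and female replicate 4 of spleen at week 104, and they were left out here too, and all others were kept. Most marker lists were highest in the labelled organ: miR-124-3p and miR-9a-5p of neurons held 4.29 to 9.68% of counts in brain and at most 0.0779% elsewhere. The liver marker miR-122-5p held 1.94 to 4.40% in liver and at most 0.289% elsewhere. The 8 germ cell miRNAs exceeded every other organ in 14 of 16 testis libraries, the exceptions being at week 104, and the kidney list (miR-192-5p and miR-194-5p) was more abundant in liver. The thymocyte list exceeded every other organ in 24 of 32 thymus libraries, the exceptions being at week 104 and brain reaching 15.4%. The share of the leukocyte list was above that of the other 9 organs in 31 of 31 spleen and 29 of 32 thymus libraries, and the smooth muscle list exceeded every other organ in 13 of 16 uterus libraries, the exceptions being at week 2. Spleens of the youngest rats had RNA of low integrity by the study's table, and testis libraries of adolescent and adult rats consisted mostly of piRNAs, a germ cell class of small RNA.

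Both 5p arms were among the abundant miRNAs of every organ. In counts per 1000000 miRNA counts of a library (CPM), miR-26a-5p averaged 51869 ± 19619 (SD over all libraries kept) and ranged from 4629 to 113334. It held 5.14% of all counts and its median rank was 5. MiR-26b-5p averaged 5597 ± 2390 CPM, ranged from 1159 to 12389, held 0.530% of counts and had a median rank of 24. The counts behind these levels were 17299 to 525488 per library for miR-26a-5p and 1565 to 65387 for miR-26b-5p, so counting error was small beside the spread between rats.

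In CPM averaged over ages, both 5p arms had some of the smallest differences between organ means in the table. The highest organ mean of miR-26a-5p was 2.39 times the lowest, and of 460 miRNAs whose counts averaged 10 or more, 0 had a smaller range. For miR-26b-5p the range was 2.76-fold, and 1 miRNA had a smaller one. The median range over the 460 miRNAs was 32.9-fold, and over the 50 most abundant it was 15.3-fold. These ranges are descriptions over organ means that share rats, and they hold for CPM with ages pooled. At single ages and with another scaling, both described below, log2 differences between organs reached 2.32 for miR-26a-5p and −2.88 for miR-26b-5p.

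Averaged over ages and sexes, miR-26a-5p was most abundant in lung (77684 ± 10498 CPM, SD, n = 32) and brain (75326 ± 21515, n = 31). Spleen (59665 ± 13160, n = 31), heart (58664 ± 7816, n = 32) and liver (55255 ± 8175, n = 32) followed. Thymus (43910 ± 11688), muscle (41818 ± 17539) and kidney (39612 ± 8521) were intermediate, each over 32 libraries. Testis (34747 ± 12462, n = 16), adrenal gland (34109 ± 8633, n = 32) and uterus (32504 ± 11352, n = 16) were lowest. The SD was widest in brain and muscle, whose levels differed between ages.

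MiR-26b-5p had another order. It was most abundant in liver (8688 ± 1599 CPM, n = 32), followed by spleen at 7955, heart at 7763 and lung at 7543 CPM. Kidney (5174), thymus (4527), adrenal gland (3974) and testis (3669) followed. Brain averaged 3497 CPM, muscle 3448 and uterus 3144. Over the pooled ages brain was thus in place 2 for miR-26a-5p and 9 for miR-26b-5p. Its place in the order of CPM means differed by age, for miR-26a-5p 7 at week 2 (44660 CPM), 2 at week 6 and 1 at weeks 21 and 104, and for miR-26b-5p 11, 9, 7 and 8. Under TMM brain was lower than spleen at week 6 (−0.53) and than lung at week 21 (−0.72) for miR-26a-5p, against the order by CPM.

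**Figure D1:**
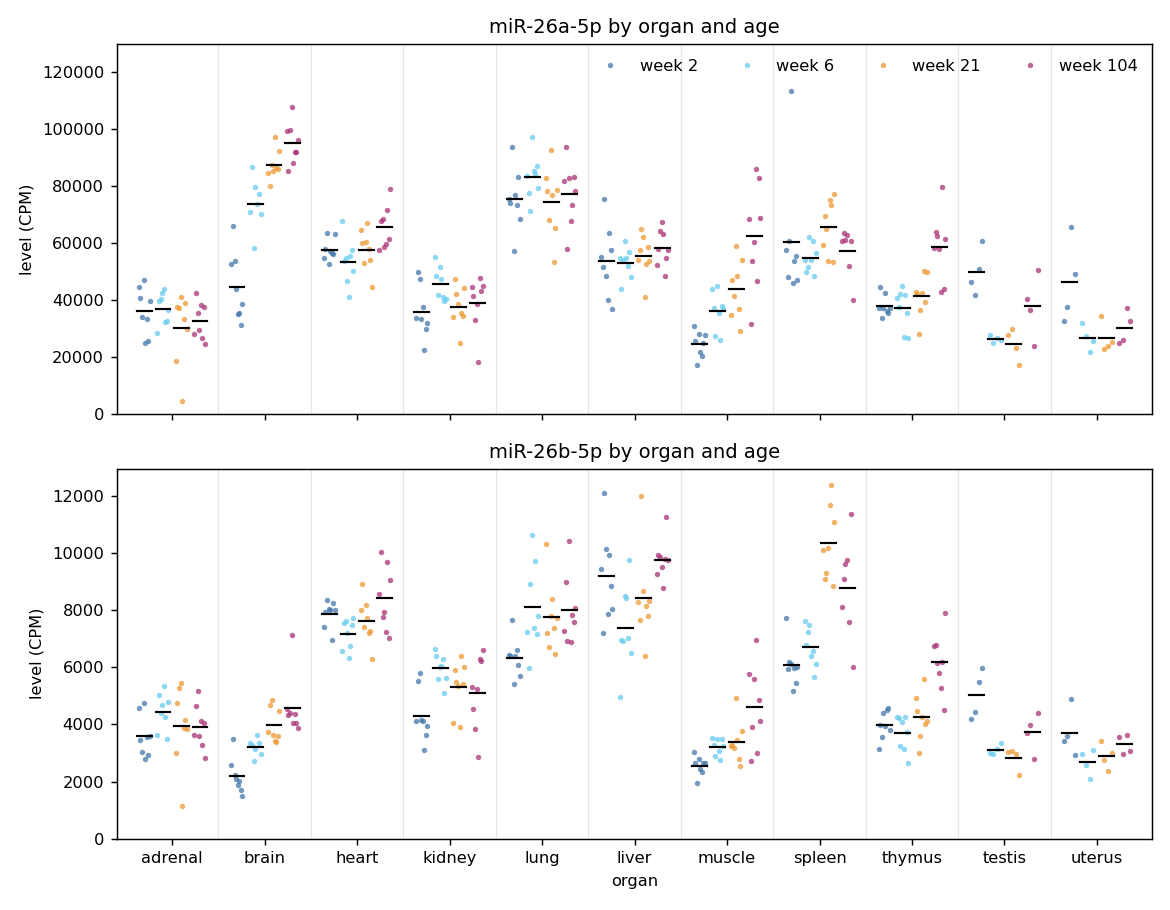
Level of miR-26a-5p and of miR-26b-5p in CPM (vertical axes) by organ (horizontal axes) and age (colours), 1 point per library with group means. Brain and muscle climb with age for both members, testis and uterus are highest at week 2, and 1 spleen library of week 2 stands at 113334 CPM of miR-26a-5p.

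Which organs differ at one age was tested with edgeR over all 55 pairs of organs. A call means a Benjamini-Hochberg adjusted p under 0.05 over the 616 miRNAs. Counts were scaled with TMM, a trimmed mean that sets the bulk of miRNAs of each library to one level, and were fitted again scaled only by the library's total. MiR-26a-5p was called in 31 of 55 pairs at week 2, 43 at week 6, 33 at week 21 and 28 at week 104. MiR-26b-5p was called in 41, 46, 41 and 32. The share of all miRNA by pair tests called was 65.7% at week 2, 64.6% at week 6, 61.6% at week 21 and 56.3% at week 104. The pairs of miR-26a-5p amount to 56.4, 78.2, 60.0 and 50.9% at these ages, above the share over all miRNAs at week 6 and below it at the others. Those of miR-26b-5p amount to 74.5, 83.6, 74.5 and 58.2%, above it at each age under TMM, though close to it at week 104.

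Between organs the scaling moved many of these calls. Called the same way under both scalings were 16, 29, 18 and 11 pairs of miR-26a-5p at weeks 2, 6, 21 and 104. For miR-26b-5p these were 29, 34, 31 and 15 pairs. Over all miRNAs 57.9, 56.2, 52.2 and 46.9% of tests were called the same way under both at those ages. As a share of the 55 pairs, miR-26a-5p was below these values at each age. MiR-26b-5p was below them at weeks 2 and 104 and above them at weeks 6 and 21. The largest differences under TMM were for miR-26b-5p, which at week 2 was lower in brain than in liver by a log2 difference of −2.88 ± 0.13 (SE, edgeR adjusted p = 1.17e-33). For miR-26a-5p the largest was between lung and testis at week 6, with a log2 difference of 2.32 ± 0.14 (edgeR adjusted p = 1.24e-25).

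Calls between neighbours in the order of CPM means depended on the scaling. At week 21 the order for miR-26a-5p was brain, lung, spleen, heart, liver, muscle, thymus, kidney, adrenal gland, uterus and testis. Of its 10 neighbouring pairs 7 were called under TMM, 3 of them against the CPM order, and 0 under library size (edgeR, adjusted p from 0.0979 upward). At weeks 2, 6 and 104 it was called in 7, 6 and 6 of 10 under TMM, of which 2, 3 and 3 were against the CPM order, and in 1, 3 and 1 under library size. For miR-26b-5p at week 21 the order was spleen, liver, lung, heart, kidney, thymus, brain, adrenal gland, muscle, uterus and testis. Of the 10 pairs 6 were called under TMM, 2 of them against the CPM order, and only heart against kidney was called under library size (log2 difference 0.52, edgeR adjusted p = 0.00328). That pair was not called under TMM (0.04, edgeR adjusted p = 0.869).

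Age changes were tested within each organ. Between week 2 and week 21, when rats go from the suckling stage to adulthood, miR-26a-5p was called higher under TMM in 7 of 11 organs and lower in 1. MiR-26b-5p was called higher in 8 and lower in 1. Over all miRNA by organ tests 21.0% were higher and 25.3% lower. Between weeks 2 and 6, 5 organs were higher and 1 lower for miR-26a-5p, and 7 and 1 for miR-26b-5p (15.4% and 20.6% over all). Between weeks 6 and 21, 4 and 5 organs were higher and 0 lower (7.39% and 8.94% over all). Between weeks 21 and 104, 3 organs were higher and 0 lower for each (7.38% and 8.66% over all).

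Library-size scaling left fewer of these calls. Over 616 miRNAs the median log2 change from week 2 to 21 was 0.05 to 0.68 higher under TMM than under library size, depending on the organ. Called the same way under both were brain, muscle and testis for miR-26a-5p. For miR-26b-5p they were brain, lung, muscle, spleen and testis. These 3 and 5 organs compare with 36.1% of all miRNA by organ tests called the same way under both. For weeks 6 against 2, 3 and 4 organs were called under both (29.2% over all), for weeks 21 against 6 it was 1 each (12.3%), and for weeks 104 against 21 it was 1 and 0 (11.7%).

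**Figure D2:**
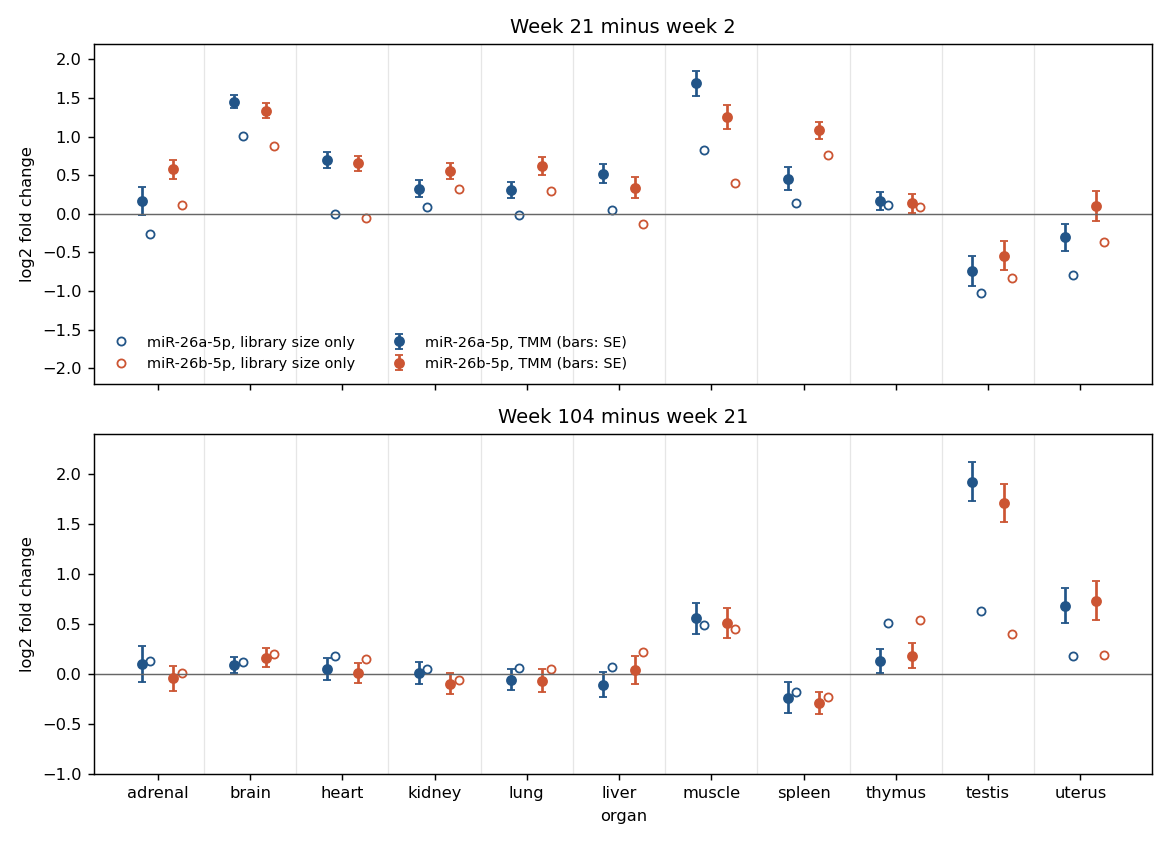
Log2 fold change of miR-26a-5p and miR-26b-5p by organ for week 21 minus week 2 and week 104 minus week 21, under TMM with its standard error and under library size. Brain and muscle lie above 0 and testis below 0 under both scalings to week 21, while the heart estimates are 0.70 and 0.65 under TMM and near 0 under library size.

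In brain, whose neurons and glia mature over these weeks, both members rose about 2-fold. MiR-26a-5p ran from 31369 to 66106 CPM at week 2 with a median of 41294 (n = 8), and its median was 73730 at week 6 (n = 7), 86156 at week 21 and 94320 at week 104 (n = 8 each). The lowest week 21 library, at 80221 CPM, was above the highest of week 2, so these groups did not overlap. Here and below, overlap of levels was looked at in CPM and for the members only. How often groups of other miRNAs did not overlap was not counted. The mean CPM rose 1.96-fold, and the log2 change was 1.45 ± 0.08 under TMM (SE, edgeR adjusted p = 1.47e-14) and 1.00 under library size (edgeR adjusted p = 1.02e-11). The median miRNA changed by 0.07 and −0.36 on these scales, and 57.3% of miRNAs were called in brain.

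MiR-26b-5p had a median of 2056 CPM in brain at week 2, 3265 at week 6, 3694 at week 21 and 4356 at week 104. Its log2 change from week 2 to 21 was 1.33 ± 0.10 under TMM (edgeR adjusted p = 2.34e-12) and 0.88 under library size (edgeR adjusted p = 1.70e-07). Both members were called higher again between weeks 6 and 21, with log2 changes of 0.42 and 0.47, of which only that of miR-26a-5p was called under library size, and neither with lane as a covariate (0.31 and 0.38). After week 21 the log2 changes to week 104 were 0.09 and 0.16 and neither was called, in an organ where 2.92% of miRNAs were. Beside this, the share of the neuron list fell from 7.18% of counts at week 2 to 5.87, 4.81 and 4.91% at the later ages, and the most abundant miRNA, miR-127-3p, went from 17.1 to 12.6% by week 21. The part of these shares in the result was not tested.

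In muscle the CPM medians of miR-26a-5p rose over the whole span, but not every step was called under both scalings. MiR-26a-5p had medians of 25338, 37125, 44333 and 64645 CPM at weeks 2, 6, 21 and 104 (n = 8 each), and the week 2 range of 17409 to 30804 overlapped that of week 21 at its lowest library, 29271. The mean CPM at week 21 was 1.78 times that of week 2, and at week 104 it was 2.53 times. The log2 change to week 21 was 1.69 ± 0.16 under TMM (edgeR adjusted p = 2.30e-11) and 0.83 under library size (edgeR adjusted p = 9.25e-05), where the median miRNA changed by −0.14 and −0.82. MiR-26b-5p rose by less, by 1.26 ± 0.16 under TMM (edgeR adjusted p = 9.90e-09) and 0.40 under library size (edgeR adjusted p = 0.0336), and 56.5% of miRNAs were called. By steps, the change of miR-26a-5p to week 6 was called under both scalings (0.84 and 0.56). That from week 6 to 21 was called under TMM (0.85) and not under library size (0.28, edgeR adjusted p = 0.217). For miR-26b-5p the TMM call from week 6 to 21 was lost under library size (0.07) and with lane as a covariate (0.42). Its call to week 6 was also lost under library size (0.33).

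Between weeks 21 and 104 both members were called higher in muscle under TMM, by 0.56 ± 0.16 and 0.51 ± 0.15, with edgeR adjusted p of 0.0118 and 0.0193. Under library size neither was called, with log2 changes of 0.49 and 0.45 (edgeR adjusted p = 0.0559 and 0.0679), and 15.4% of miRNAs were called under TMM. The call of miR-26a-5p was also lost without replicate 1 or 3 (0.47 and 0.46), and that of miR-26b-5p without replicate 1, 3 or 4 (0.36 to 0.58). The striated muscle miRNAs miR-1-3p and miR-133a-3p held 7.54% of muscle counts at week 2 and 13.8, 13.2 and 14.2% later, and miR-127-3p was the most abundant miRNA of week 2 muscle with 27.5%. Whether these shares bear on the change in miR-26 was not tested.

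Spleen differed between the members. MiR-26b-5p ran from 5167 to 7737 CPM at week 2 (median 5990), had a median of 6673 at week 6, and at week 21 had a median of 10154 with a lowest library of 8857. No week 21 library overlapped weeks 2 or 6. Its log2 change from week 2 to 21 was 1.08 ± 0.11 under TMM (edgeR adjusted p = 1.14e-09) and 0.77 under library size (edgeR adjusted p = 9.06e-07), against medians of −0.14 and −0.44 over all miRNAs. MiR-26a-5p had medians of 54586 and 67319 CPM at weeks 2 and 21, with a log2 change of 0.45 ± 0.15 under TMM (edgeR adjusted p = 0.0142) that was not called under library size (0.14) or without replicate 2 (0.40). In spleen 43.8% of miRNAs were called.

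One spleen library of week 2, female replicate 4, stood apart at 113334 CPM of miR-26a-5p, while the other 7 ran from 46212 to 60928. Without it, and without male replicate 1 of adrenal gland at week 21, the spleen log2 change was 0.63 ± 0.12 for miR-26a-5p (edgeR adjusted p = 0.000149) and 1.07 for miR-26b-5p. MiR-26a-5p was then also called higher in spleen at week 6 against week 2 (0.45, edgeR adjusted p = 0.00596), which it was not with all libraries (0.27). The red blood cell list held 18.1% of spleen counts at week 2, 12.0% at week 6, 6.02% at week 21 and 10.4% at week 104. Of its members, miR-486 was the most abundant miRNA of spleen at week 2, with 15.0% of counts. The leukocyte list held 4.28% at week 2 and 6.06% at week 21. The part of these lists in the spleen change was not tested. All spleens of week 2 had RNA of low integrity, so that age and RNA integrity cannot be told apart in this contrast. Neither member was called in spleen from week 21 to 104 (−0.24 and −0.29), where 5.36% of miRNAs were.

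In lung miR-26b-5p was called higher to week 21 under both scalings, by 0.62 ± 0.12 and 0.29 (edgeR adjusted p = 3.24e-05 and 0.0437). MiR-26a-5p was called under TMM only (0.31 ± 0.11, edgeR adjusted p = 0.0159, against −0.021 under library size), and not by DESeq2 (0.21) or without replicate 1 or 4 (0.33 and 0.20). The CPM medians of miR-26a-5p were 74951, 84062, 77617 and 80130 at the 4 ages, ranges that overlapped throughout. In lung 50.0% of miRNAs were called to week 21 and 9.25% from week 21 to 104, where neither member was.

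In heart the calls rested on the scaling. MiR-26a-5p had medians of 57002, 54291, 59015 and 64666 CPM at weeks 2, 6, 21 and 104, and miR-26b-5p had 8008, 7335, 7576 and 8248. To week 21 both were called higher under TMM, by 0.70 ± 0.11 and 0.65 ± 0.10 (edgeR adjusted p = 9.90e-07 and 7.75e-07), while under library size the changes were −0.0017 and −0.047 and neither was called. The median miRNA changed by 0.06 under TMM and by −0.58 under library size, so both members held their share of the counts while the median miRNA lost share. In heart 52.6% of miRNAs were called to week 21 and 5.68% from week 21 to 104, where neither member was.

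Liver, kidney and adrenal gland had small changes. In liver the log2 changes to week 21 were 0.52 ± 0.12 for miR-26a-5p and 0.34 ± 0.14 for miR-26b-5p under TMM (edgeR adjusted p = 0.000654 and 0.0438), and neither was called under library size, where miR-26b-5p had the opposite sign (−0.13), and 43.2% of miRNAs were called. The liver call of miR-26b-5p was also lost by DESeq2 (0.19), with lane as a covariate (0.35) and without any one replicate number (0.32 to 0.37). In kidney the changes were 0.33 ± 0.11 and 0.55 ± 0.11 under TMM (edgeR adjusted p = 0.0169 and 3.78e-05), neither called under library size, with 41.6% of miRNAs called, and that of miR-26a-5p was not called without replicate 2, 3 or 4 (0.28 to 0.35). In adrenal gland miR-26b-5p was called higher under TMM (0.58 ± 0.13, edgeR adjusted p = 0.000337) and miR-26a-5p was not (0.17 ± 0.18, edgeR adjusted p = 0.479), with 45.5% of miRNAs called. Neither member changed by the test from week 21 to 104 in liver, kidney or adrenal gland, where 3.73, 13.1 and 15.9% of miRNAs were.

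The adrenal estimate of miR-26a-5p turned on 1 library. Male replicate 1 of week 21 had 4629 CPM, the lowest of the series, from 22094 counts, while the other 7 libraries of its age ran from 18826 to 41090 CPM. It also had the lowest leukocyte share of its group, 0.0272% against 0.0885 to 0.206%, and the lowest share of miR-181a-5p and miR-181b-5p, 0.220% against 0.554 to 0.940%. Without it and the spleen library, miR-26a-5p was called higher in adrenal gland to week 21 under TMM (0.33 ± 0.10, edgeR adjusted p = 0.00913) and miR-26b-5p changed by 0.67.

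Thymus, the organ of T cell maturation that shrinks with age, showed no called change to week 21 under either scaling (0.16 and 0.14 under TMM), where 29.9% of miRNAs were called. Late in life, between weeks 21 and 104, the medians went from 42406 to 60048 CPM for miR-26a-5p and from 4198 to 6175 for miR-26b-5p. Under library size both were called higher, by 0.51 and 0.54 (edgeR adjusted p = 0.00256 and 0.00201), and under TMM neither was, at 0.13 and 0.18. The median miRNA changed by 0.44 and 0.10 on the same scales, and 41.2% of miRNAs were called under TMM. The thymocyte list, miR-181a-5p and miR-181b-5p, held 40.8, 38.5 and 32.4% of thymus counts at weeks 2, 6 and 21 and 6.28% at week 104, and its part in the result was not tested.

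Testis ran the other way. MiR-26a-5p in the 4 libraries of week 2 was at 46295, 41955, 50975 and 60866 CPM. At week 6 it was at 27687, 24898, 26841 and 25916, and at week 21 at 27932, 29941, 23174 and 17448. Every library of weeks 6 and 21 was below every one of week 2. The log2 change from week 2 to 21 was −0.74 ± 0.19 under TMM (edgeR adjusted p = 0.00355) and −1.02 under library size (edgeR adjusted p = 0.00135). MiR-26b-5p fell likewise, from 4175 to 5987 CPM at week 2 to 2237 to 3055 at week 21, by −0.54 ± 0.18 under TMM (edgeR adjusted p = 0.0201) and −0.83 under library size, and 51.0% of miRNAs were called. The testis libraries of weeks 2 and 21 shared no lane, so that lane and age cannot be told apart between these groups. With lane as a covariate, in the fit over all ages, the changes were −0.34 and −0.19 and neither was called. That of miR-26b-5p was not called by DESeq2 either (−0.28), nor without replicate 2 (−0.55).

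At week 104 testis miR-26a-5p was at 40551, 36685, 24038 and 50755 CPM, 1 library lying within the range of week 21 and the others above it. The log2 change from week 21 was 1.92 ± 0.20 under TMM (edgeR adjusted p = 2.55e-07) and 0.63 under library size (edgeR adjusted p = 0.0300), and for miR-26b-5p it was 1.71 ± 0.19 (edgeR adjusted p = 5.79e-07) and 0.40, the latter not called. Here 50.6% of miRNAs were called and TMM and library size differed by 1.13 in the median miRNA. The 8 germ cell miRNAs held 1.07% of testis counts at week 2, 6.32% at week 6, 5.01% at week 21 and 0.109% at week 104. A single miRNA, miR-10b-5p, held 24.1% at week 2 and 54.9% at week 104, and the part of these shares in the result was not tested.

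In uterus miR-26a-5p was at 32648, 37731, 65575 and 49306 CPM at week 2 and at 31930, 27374, 21777 and 25568 at week 6, and in CPM the groups did not overlap. By the test, week 6 against week 2 was called under library size (−0.80, edgeR adjusted p = 0.00471) and not under TMM (−0.21 ± 0.17, edgeR adjusted p = 0.406). The change to week 21 was called under library size (−0.79, edgeR adjusted p = 0.00375) and not under TMM (−0.30 ± 0.17, edgeR adjusted p = 0.191), where 38.1% of miRNAs were called. Both members were called higher from week 21 to 104 under TMM only, by 0.68 ± 0.17 and 0.73 ± 0.19 (edgeR adjusted p = 0.0116 and 0.0138, against 0.18 and 0.19 under library size), with 13.1% of miRNAs called. These uterus calls were lost without replicate 2, 3 or 4 for miR-26a-5p (0.65 to 0.69) and without replicate 1, 2 or 3 (0.51 to 0.77) or with lane (0.57) for miR-26b-5p. The smooth muscle miRNAs miR-143-3p and miR-145-5p held 26.5% of uterus counts at week 2 and 44.8, 47.8 and 44.6% later, and their part was not tested.

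Whether an organ's age change differed from the mean change of the other organs was tested in 1 fit of all 80 groups. From week 2 to 21 miR-26a-5p was called in 5 of 11 organs, higher than the others in brain (1.17 ± 0.15) and muscle (1.62 ± 0.15) and lower in thymus (−0.44 ± 0.14), testis (−1.16 ± 0.20) and uterus (−0.87 ± 0.20). The edgeR adjusted p ran from 6.39e-22 in muscle to 0.0155 in thymus. MiR-26b-5p was called in 6, the same 5 and spleen (0.40 ± 0.13). Of all tests 26.3% were called, and 21.0% were called the same way under both scalings. Called the same way under both scalings were 4 organs for each member, brain, testis and uterus for both, with muscle for miR-26a-5p and spleen for miR-26b-5p. Leaving out a replicate number lost thymus (without 1 or 2) and uterus (without 2) for miR-26a-5p, at −0.34, −0.35 and −0.52. For miR-26b-5p it lost spleen (without 2, 3 or 4, at 0.38 to 0.41) and uterus (without 1, 2 or 3, at −0.22 to −0.40). The spleen call of miR-26b-5p was also lost with a minimum mean count of 10 (0.14).

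For weeks 104 against 21 the same test called testis higher for both members (1.82 ± 0.20 and 1.60 ± 0.18). It called spleen lower for both (−0.50 ± 0.15 and −0.53 ± 0.14) and kidney lower for miR-26b-5p (−0.45 ± 0.13). These 2 and 3 organs compare with 13.4% of all tests. Only spleen for miR-26b-5p was called the same way under both scalings, beside 9.78% of all tests. Both spleen calls were lost without replicate 4 (−0.36 each), and the kidney call without replicate 1 or 2 (−0.38 and −0.44). The spleen call of miR-26a-5p was also lost with a minimum mean count of 10 (−0.37).

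Myc is known to repress miR-26 together with a set of other miRNAs that restrain growth, and to induce the cluster led by miR-17-5p, a set that promotes it. Of 24 miRNAs listed as repressed, beside miR-26, 16 were analysed and the 8 let-7 miRNAs were not analysed here, so the counts are for part of the list. From week 2 to 21 the 16 were called higher in 122 of 176 tests (16 miRNAs in 11 organs) and lower in 1 under TMM, with a median log2 change of 0.74. Over all miRNAs 21.0% of tests were higher and 25.3% lower, and the median was −0.06. Under library size the list was called higher in 80 tests and lower in 14 (median 0.30), where 10.9% of all tests were higher and 34.7% lower (median −0.45). The 6 miRNAs of the cluster were called higher in 4 of 66 tests and lower in 44 under TMM (median −0.74), and higher in 3 and lower in 50 under library size (median −1.08). The lists were chosen with earlier results of these data known and the counts are descriptions.

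Members of the lists differed in size. MiR-29a-3p and miR-29b-3p, known to target collagens, were called higher in all 11 organs with median log2 changes of 3.25 and 3.12. MiR-22-3p and miR-30a-5p were called higher in 11, with medians of 1.29 and 1.06. MiR-16-5p, known to restrain G1 cyclins, was called higher in 2 (median 0.11) and miR-30c-5p in 4 (median 0.08). In the cluster, miR-17-5p was called lower in 10 organs (median −0.96) and miR-18a-5p in 8 (median −1.52). With 7 organs higher, miR-26a-5p lay within the range of the repressed list.

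In brain the repressed list was called higher in 14 of 16 tests under TMM (median 0.65) and in 8 under library size. In muscle it was called in 15 of 16 (median 1.44) and in 9, and miR-26a-5p changed by 1.45 in brain and 1.69 in muscle. In testis it was called higher in 7 of 16 and lower in 0 (median 0.48), while both miR-26 members were called lower there without lane as a covariate and not with it. In uterus, where miR-26a-5p was −0.30, the list was called higher in 10 of 16 (median 0.92). Testis was also the organ in which 3 of the 6 cluster miRNAs were called higher and 1 lower. For weeks 104 against 21 the repressed list was called higher in 35 of 176 tests and lower in 11 (median 0.11, against 0.00 over all, with 7.38% and 8.66% of all tests called).

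Another list holds the other miRNAs known to target Ezh2, as miR-26 does. From week 2 to 21 its 5 miRNAs were called higher in 28 of 55 tests and lower in 9 under TMM, with a median of 0.51, where 21.0% of all tests were higher and 25.3% lower (median −0.06). Under library size 22 were higher and 14 lower (median 0.09), beside 10.9% and 34.7% over all. MiR-101a-3p was called higher in all 11 organs (median 1.54) and miR-101b-3p in 8 (median 0.63). MiR-214-3p, abundant in mesenchymal cells, was called lower in 8 organs and higher in 1 (median −0.88). MiR-124-3p, a neuronal miRNA, was called higher in 4 and lower in 0. From week 21 to 104 the list was called higher in 5 of 55 tests and lower in 11, beside 7.38% and 8.66% over all miRNAs.

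**Figure D3:**
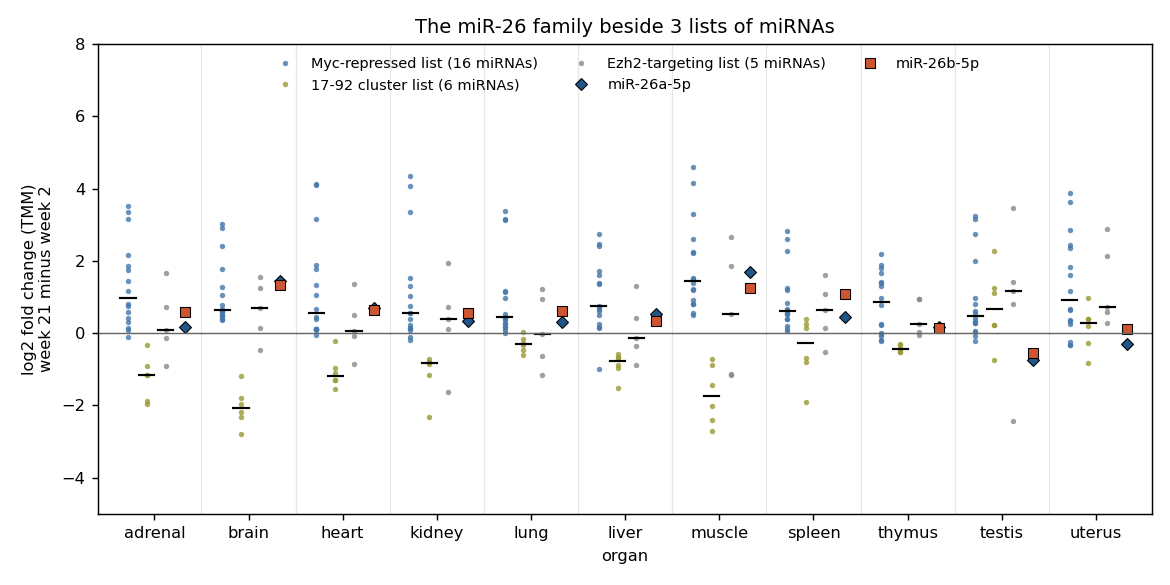
Log2 fold change under TMM, week 21 minus week 2, by organ, for miR-26a-5p and miR-26b-5p beside the miRNAs of the 3 lists, 1 point per miRNA. The miR-26 members lie above the median of the Myc-repressed list in brain, on either side of it in muscle and below its median of 0.48 in testis. In uterus miR-26a-5p also lies below the list median.

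Sex was tested in the 9 organs that both sexes have. Averaged over ages, edgeR called neither member in any organ, 0 of 9 each, where 1.39% of all tests were called. At an unadjusted p under 0.05 there were 2 for miR-26a-5p, brain (−0.14, male minus female) and kidney (−0.20), and 1 for miR-26b-5p, brain (−0.22). DESeq2 also called 0 for each. The largest standard error of these log2 differences was 0.13, that of miR-26a-5p in adrenal gland.

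Within single ages 36 tests were made per member, 9 organs at 4 ages, and 1 was called for each, brain at week 2, where 1.32% of all such tests were called. MiR-26a-5p in females was at 52842, 66106, 53858 and 43997 CPM and in males at 35015, 35501, 31369 and 38591. Every male library was below every female one. Males were lower 1.69-fold under TMM, a log2 difference of −0.75 ± 0.11 (edgeR adjusted p = 8.37e-05). MiR-26b-5p was at 2595, 3482, 2242 and 2089 CPM in females and at 1867, 2022, 1710 and 1499 in males, again without overlap, and the log2 difference was −0.68 ± 0.13 (edgeR adjusted p = 0.00169).

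At weeks 6, 21 and 104 the brain differences between the sexes were 0.02, 0.15 and 0.04 for miR-26a-5p, none called. The change from week 2 to 21 was accordingly larger in males for miR-26a-5p, by 0.90 ± 0.16 on the log2 scale (edgeR adjusted p = 0.0017), and 0.667% of all tests of this kind were called. Under library size the same difference was 0.73 and was not called (edgeR adjusted p = 0.0523), and without replicate 1, 2 or 4 it was not called either, at 0.87, 0.68 and 0.98. For miR-26b-5p it was 0.54 ± 0.19 (edgeR adjusted p = 0.135) and not called. In the other 8 organs the estimates for both members lay between −0.16 and 0.48 and none was called.

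The brain libraries of week 2 differed between the sexes in other ways. The share of the neuron list ran from 5.71 to 6.89% in females and from 7.29 to 9.68% in males, without overlap. That of miR-181a-5p and miR-181b-5p ran from 11.1 to 13.8% in females and from 7.13 to 11.8% in males. These are listed for thymocytes but are also abundant in brain. The share of a list of epithelial miRNAs was 0.0216, 0.00609, 0.531 and 0.00625% in the females, and 0.211 to 0.534% in the males. The part of these shares in the difference between the sexes was not tested. The females were sequenced on lanes 2, 4 and 6 and the males on lanes 1, 3 and 7, so that lane and sex cannot be told apart within that group. With lane as a covariate across all brain libraries the difference in age change of miR-26a-5p was 0.84 and was still called. As no lane held both sexes at week 2, that fit cannot separate lane from sex in this group either.

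**Figure D4:**
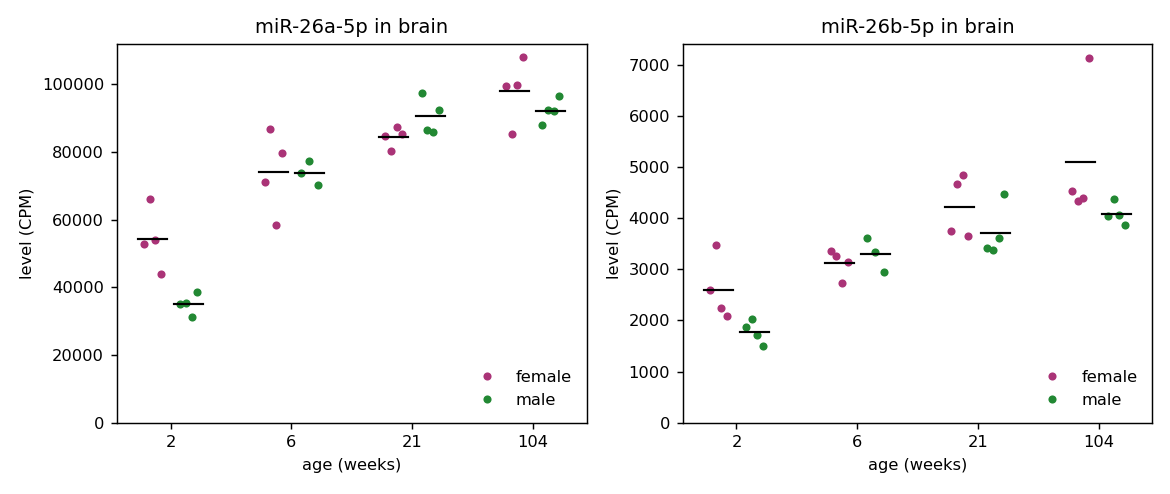
Level of miR-26a-5p and miR-26b-5p in brain in CPM by age in weeks, 1 point per library, females and males in separate colours with group means. At week 2 the 4 male libraries lie below the 4 female ones for both members, and at later ages the sexes overlap.

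The ratio of the 2 members does not depend on scaling, since both counts come from one library. MiR-26b-5p amounted to 4.67 ± 0.69% of miR-26a-5p counts in brain (SD, n = 31), the lowest of the 11 organs, and to 15.9 ± 2.7% in liver (n = 32), the highest. Muscle was at 8.71%, lung at 9.78%, uterus at 10.1%, thymus at 10.4% and testis at 10.9%. Adrenal gland was at 12.1%, kidney at 13.2%, heart at 13.3% and spleen at 13.5%. Ligation and amplification favour some small RNAs, so these percentages compare libraries and not molecules of the 2 members.

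Brain stood apart from its neighbour in this order at week 21. Its ratio ran from 3.51 to 5.82% there and that of muscle from 6.93 to 9.30%, a log2 difference of 0.79 (exact permutation test, two-sided, adjusted p = 0.00155 over 10 pairs of neighbours). Muscle was in turn below thymus, which ran from 8.26 to 11.5%, by 0.40 (exact permutation test, adjusted p = 0.00311). The other 8 neighbouring pairs were not called, with log2 differences from 0.01 to 0.19.

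**Figure D5:**
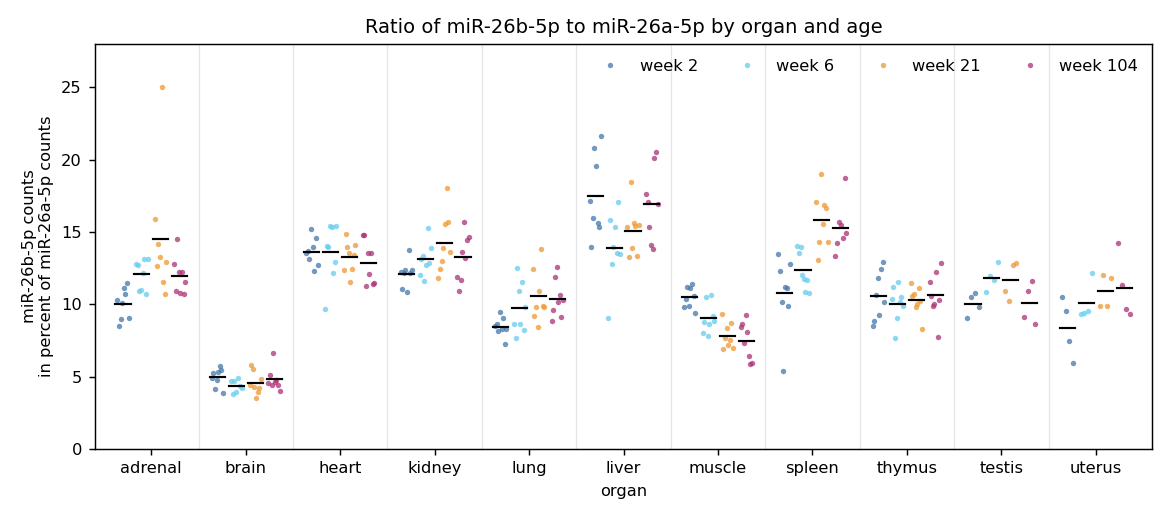
Counts of miR-26b-5p in percent of those of miR-26a-5p (vertical axis) by organ (horizontal axis) and age (colours), 1 point per library with group means. Brain lies between 3.51 and 6.60% at all ages, spleen climbs from a mean of 10.8% at week 2 to 15.8% at week 21, muscle declines from 10.5 to 7.82%, and 1 adrenal library stands at 25.0%.

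The ratio changed with age in 4 organs of 11 between weeks 2 and 21, by two-sided exact permutation tests adjusted over 22 tests. In spleen the mean went from 10.8 to 15.8%, 1.51-fold on the log scale (exact permutation adjusted p = 0.00342). As the spleens of week 2 all had RNA of low integrity, age and RNA integrity cannot be told apart in this ratio either. In adrenal gland the median went from 10.2 to 13.1%, and the log-scale mean 1.41-fold (exact permutation adjusted p = 0.0057). In lung the mean went from 8.45 to 10.5%, 1.24-fold on the log scale (exact permutation adjusted p = 0.0128). In muscle the mean went down from 10.5 to 7.82%, to 0.744 of its start (exact permutation p = 0.0001554, the smallest this design allows, adjusted p = 0.00342). All 8 muscle libraries of week 21, which reach 9.30%, were below the lowest of week 2, 9.43%.

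The 2 libraries that stood apart bear on these ratios, the adrenal one at 25.0% and the spleen one at 5.39%. Without them the log2 changes were 0.37 in adrenal gland and 0.46 in spleen, both still called (exact permutation adjusted p = 0.00912 and 0.00513). Kidney was just outside the threshold (1.17-fold, exact permutation adjusted p = 0.0547). In brain the ratio changed by −0.12 on the log2 scale and was not called (exact permutation adjusted p = 0.515), while both members rose. In testis and uterus, with 4 libraries per age, the exact test cannot give a p below 0.0286, and the log2 changes were 0.21 and 0.41. Between weeks 21 and 104 the test called 0 of 11 organs, with the smallest exact permutation p at 0.102.

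The 3p arms were rare. MiR-26b-3p averaged 14.2 CPM with 3 to 114 counts per library and a median rank of 248, and miR-26a-3p averaged 1.63 CPM with 0 to 24 counts and a median rank of 398. MiR-26a-3p had 0 counts in 37 libraries and at most 3 in 175, and in 22 of 80 groups no library had more than 3. Of all reads from both arms the 3p arm held a mean of 0.00354% for miR-26a and 0.252% for miR-26b. The member with more 5p reads, miR-26a, thus had fewer 3p reads, 1499 in all libraries together against 11671.

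MiR-26b-3p followed its 5p arm across organs. It was highest in liver (32.7 ± 9.5 CPM, n = 32) and spleen (29.6 ± 10.6, n = 31) and lowest in muscle (6.72 ± 2.53, n = 32) and brain (7.46 ± 4.16, n = 31). Its share of both arms was 0.395% in liver, 0.388% in spleen and 0.142% in heart, the lowest. The mean of 14.2 CPM of miR-26b-3p limits what single libraries can show, and intervals from counts cover counting error only.

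Over the 80 group means, the miRNAs whose pattern of log2(CPM + 1) was most like that of miR-26a-5p were miR-674-5p (Pearson's r = 0.72), miR-101a-5p (0.71), miR-674-3p (0.68), miR-30d-5p (0.65) and miR-101a-3p (0.64), of 459 compared. MiR-26b-5p came in place 7 with r = 0.62, and in place 1 with r = 0.75 where CPM were scaled by TMM. For miR-26b-5p they were miR-339-3p (0.85), miR-126a-5p (0.77), miR-339-5p (0.75), miR-26b-3p (0.74) and miR-423-5p (0.73), and miR-26a-5p came in place 12, or 6 under TMM. MiR-339-3p had its highest mean in liver, 107 CPM, as miR-26b-5p did, while miR-674-5p had 36.2 CPM in brain and 6.62 in muscle. The group means share rats, libraries and totals, and no p is given. Scaled by TMM, 1 of the 5 named for miR-26a-5p and 3 of those for miR-26b-5p stayed among the first 5.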

How the data were processed

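Small RNA libraries of 320 organ samples were sequenced on 8 lanes. Per the study's methods and the submitters' processing notes, reads were trimmed with fastp 0.23.2, those of 16 to 35 nt were kept, and they were aligned with Bowtie 1.3.1 with fewer than 2 mismatches to mature miRNAs of miRBase 22.1 (rat genome rn7). The deposited values are raw counts per miRNA, from which the authors had removed miRNAs of low mean count. Short reads may be assigned to either of the closely related 5p arms, and no spike-in gives absolute amounts.

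CPM were computed from column totals. Counts were tested with edgeR 4.0.16 (quasi-likelihood, TMM) in R 4.3.3, 1 fit per organ over groups of sex and age, 1 per age over organs and 1 over all 80 groups. Adjusted p is by Benjamini-Hochberg over the 616 miRNAs of a contrast, with a threshold of 0.05. DESeq2 1.42.0 was an alternative. Ratios were tested by exact permutation over samples (Python 3.11.15, numpy 2.4.6, pandas 2.3.3, scipy 1.17.1, with figures by matplotlib 3.10.9). The fits were tested on simulated data. Other alternatives were library-size scaling, a minimum mean count of 10, all 320 samples, lane as a covariate (lanes from the study's sample table), the replicate number as a block, leaving out each replicate number in turn, and leaving out 1 brain library (female replicate 4 of week 104) with a low miRNA share.

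Groups are labelled by organ, sex and age. Replicates are separate rats, but organs share rats. 0 per-sample columns were left unmapped. Depths per library are given with the results, and intervals from counts cover counting error only. Members, lists and tests were chosen with earlier results of these data known. Named beside the members are the 5 miRNAs most like each 5p arm, members of the 3 lists and of the marker lists, and the most abundant miRNA of an organ. Of the Myc-repressed list 8 let-7 miRNAs were not used here.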

Additional observations from a re-analysis of the deposited data

Results flagged for a closer look

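Single libraries standing far from their group by Dixon's criterion were sought in 132 groups of values, and 11 were found, where chance gives about 1 in 20. In adrenal gland at week 21, male replicate 1 had a ratio of miR-26b-5p to miR-26a-5p of 25.0%, beside 10.7 to 15.9% in the others. In brain at week 104, female replicate 4 had 7125 CPM of miR-26b-5p (others 3858 to 4533) and a ratio of 6.60% (others 4.00 to 5.09%). In liver, female replicate 3 of week 21 had 11987 CPM of miR-26b-5p (others 6408 to 8682) and a ratio of 18.4% (others 13.3 to 15.6%), and male replicate 3 of week 104 had 11258 CPM (others 8777 to 9915). In spleen at week 2, female replicate 4 had 113334 CPM of miR-26a-5p (others 46212 to 60928) and a ratio of 5.39% (others 9.86 to 13.4%), and female replicate 1 had 7737 CPM of miR-26b-5p (others 5167 to 6187). In testis at week 21, replicate 4 had 2237 CPM of miR-26b-5p (others 2953 to 3055). In uterus at week 6, replicate 4 had a ratio of 12.1% (others 9.31 to 9.53%).

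Organs whose age change differed from the mean of the other organs were found by a contrast of the edgeR fit. From week 2 to 21 the log2 differences for miR-26a-5p were 1.17 in brain, 1.62 in muscle, −0.44 in thymus, −1.16 in testis and −0.87 in uterus. For miR-26b-5p they were 0.90 in brain, 1.00 in muscle, 0.40 in spleen, −0.59 in thymus, −1.07 in testis and −0.56 in uterus. From week 21 to 104 they were −0.50 in spleen and 1.82 in testis for miR-26a-5p, and −0.45 in kidney, −0.53 in spleen and 1.60 in testis for miR-26b-5p. The change of miR-26a-5p in brain from week 2 to 21 was larger in males than in females by 0.90 on the log2 scale.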

How the results depend on the processing

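Scaling by library size in place of TMM turned the sign of the log2 change of miR-26a-5p in heart for weeks 21 against 2 (−0.0017) and 6 against 2 (−0.11), in lung for 21 against 2 (−0.021), and of thymus against the other organs (0.12). For miR-26b-5p it turned heart (−0.047 and −0.14), liver for 21 against 2 (−0.13) and thymus against the others for 104 against 21 (0.40). Under library size the organs called for miR-26a-5p were 4 for 21 against 2, 1 for 21 against 6, 0 against the other organs for 104 against 21 and 0 for sex by age. For miR-26b-5p they were 5, 1 and 5 for 21 against 2, 21 against 6 and 6 against 2, and 1 for 104 against 21. With lane as a covariate they were 3 for 6 against 2, 2 for 21 against 6 and 5 against the others for 104 against 21 (miR-26a-5p) and 2 for 21 against 6 (miR-26b-5p). The testis change to week 21 was then −0.34 and −0.19 and not called, and miR-26a-3p in testis changed sign (−0.44).

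Leaving out each replicate number in turn gave, for miR-26a-5p, 1 to 2 organs for 104 against 21, 2 to 4 for 21 against 6, 1 to 3 against the others for 104 against 21 and 0 to 1 for sex by age, and for miR-26b-5p 1 to 2 and 3 to 4 for 104 against 21 and 21 against 6. The likeness lists shared 1 and 3 of 5 under TMM-normalized CPM. DESeq2, the minimum mean count of 10, all 320 samples and leaving out the brain library moved no count of organs by more than 1.5 times. Single calls still changed. With the minimum mean count of 10, 2 calls against the other organs were lost, both in spleen, and 4 were gained. Leaving out the adrenal and the spleen library, chosen after seeing the data, moved none either. The cause of these differences was not tested.

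With the replicate block 8 and 9 organs were called for 21 against 2 (miR-26a-5p and miR-26b-5p), as without it, and 3 and 4 in place of 4 and 5 for 21 against 6, the heart calls being lost (0.29 and 0.27). The labels do not say whether one replicate number is one rat in different organs. Libraries with one number correlated with a median of 0.0085 over organs and 0.00844 over ages, and 23.9 and 28.9% of pairs exceeded 0.1. The value over organs does not show that they are different rats, and over ages no rat can be shared. The main fits over several organs treated organs of one rat as independent, so their p-values leave that sharing out.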

Other observations

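The 3p arm of miR-26b changed with age in some organs. From week 2 to 21 miR-26b-3p was called higher under TMM in brain (1.32 ± 0.24, edgeR adjusted p = 2.89e-05), muscle (1.07 ± 0.25), liver (0.89 ± 0.21) and lung (0.43 ± 0.13), and lower in testis (−1.20 ± 0.30, edgeR adjusted p = 0.003) and thymus (−0.63 ± 0.21). Under library size brain (0.90), testis (−1.50) and thymus (−0.68) were still called. In brain and testis these changes had the sign of those of miR-26b-5p, while in thymus miR-26b-5p was not called (0.14). From week 21 to 104 miR-26b-3p was called higher in testis under TMM only (1.67 ± 0.30).

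MiR-26a-3p was called lower from week 2 to 21 in kidney (−1.05 ± 0.36, edgeR adjusted p = 0.016) and higher in testis (1.03 ± 0.40, edgeR adjusted p = 0.0362), where miR-26a-5p was lower. It was called lower in testis from week 21 to 104 (−1.48 ± 0.44, edgeR adjusted p = 0.0085), where miR-26a-5p was higher. All of its libraries had at most 24 counts. The testis call to week 21 rested on 7 to 12 counts per library at week 2 and 4 to 9 at week 21. It was not made under library size (0.75), and with lane as a covariate the sign was reversed (−0.44).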
